A study of Glycine max with 26 samples.

Results

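Rubisco activase and fructose-1,6-bisphosphatase transcripts were followed through 2 circadian cycles in developing soybean seeds. The genes are RCA14 and RCAALPHA, named as Rubisco activases, and FBP, the symbol used for fructose-1,6-bisphosphatase. They were taken as every probe set whose only symbol in the platform annotation was RCA14, RCAALPHA or FBP, which gave 3 of the 4099 genes with a symbol and 6 of the 16383 probe sets in the table, 3 for RCA14, 1 for RCAALPHA and 2 for FBP. The genes were selected on their 24 h rhythm in these arrays, that is on the adjusted p and the peak of the fitted wave, so all values of that rhythm are given as description and carry no test.

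The seeds came from cultivar Williams 82, had their coats on, and were picked 5 weeks after the flower had opened and been marked. The plants had been entrained to days of 12 h of light (350 µmol m-2 s-1) and 12 h of darkness, with air at 75% humidity and 25 °C, and were then held in constant light and temperature. Seeds were sampled every 4 h from 24 h to 72 h after constant light began, 13 times with 2 replicates each, and 24 h was subjective dawn. Each replicate pooled 8 seeds from 3 plants, and the 26 RNA samples were hybridised to 26 single-colour arrays. No untreated or mutant group is part of the design, and every seed shared the same cultivar, age and light.

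Rubisco activase is a chloroplast ATPase of the AAA+ family that removes inhibitory sugar phosphates from Rubisco, the enzyme that fixes carbon dioxide, and so keeps it active in the light. In many plants it is made in a shorter beta and a longer alpha form, and the extension at the end of the alpha form carries the cysteines through which thioredoxin sets its activity. Fructose-1,6-bisphosphatase removes a phosphate from fructose-1,6-bisphosphate, in the chloroplast within the regenerating phase of the Calvin cycle and in the cytosol on the way to sucrose. The annotation does not say which of these forms FBP encodes. Green soybean embryos contain chloroplasts, and in leaves of several species activase transcripts are known to follow the circadian clock.

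The identities of the 6 probe sets set what can be told apart. RCA14 was measured by Gma.10987.2.S1_a_at, Gma.10987.2.S1_x_at and Gma.10987.2.S1_at, with mean log2 signals of 10.89, 9.20 and 6.97 over the 26 arrays. RCAALPHA was measured by Gma.10987.3.S1_at, with a mean log2 signal of 8.10. The shared number in these IDs places both activases in the same probe cluster, and by the maker's naming an "_x_at" set may bind related transcripts, so cross-binding between the 2 activases was not tested. FBP was measured by Gma.16833.1.S1_s_at, with a mean log2 signal of 7.11, where "_s_at" marks probes shared among transcripts. The other FBP probe set, Gma.16833.1.S1_at, had a mean log2 signal of 2.23 and lay within 0.0598 of the lowest value of its array on all 26 arrays. It therefore carries no level of FBP that can be read and was not among the 11481 that entered the tests, for which the log2 signal had to average more than 4. The other 5 probe sets did. Signals of different probe sets depend on their probes, so these means do not rank the genes.

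The arrays were alike in most respects. Replicates of a time correlated at r of 0.977 to 0.994 over the probe sets tested, and array medians lay between 6.08 and 6.47. The arrays fell into 13 with a lowest log2 value of 1.54 to 2.04 and 13 with one of 2.40 to 3.02, called low-floor and high-floor arrays here, and every time had 1 of each. The labels name no batch for them. Of 17 probe sets for seed storage proteins and other abundant embryo proteins, 15 passed the signal filter, and the mean of their log2 signals was 13.72 to 14.04 across arrays. The 2 below it were probe sets of CG-1 and BBI-1. All 4 seed coat probe sets passed the filter. As whole seeds were used, fewer chloroplast-bearing cells and less RNA per cell cannot be told apart.

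The main RCA14 probe set moved between a low plateau in the subjective day and a high plateau in the subjective night. In the first cycle its 2 replicates read 10.70 and 11.22 log2 units at 24 h, 10.53 and 10.73 at 28 h, 10.54 and 10.43 at 32 h, 10.55 and 10.67 at 36 h, 11.15 and 11.21 at 40 h, and 10.995 and 11.18 at 44 h. In the second cycle they read 10.85 and 11.38 at 48 h, 10.54 and 10.91 at 52 h, 10.83 and 10.64 at 56 h, 10.65 and 10.76 at 60 h, 11.17 and 11.15 at 64 h, and 11.06 and 11.22 at 68 h, and the last time, 72 h, gave 11.19 and 10.96. All 8 arrays of the middle of the subjective night (40, 44, 64 and 68 h) were above all 8 arrays of the middle of the subjective day (28, 32, 52 and 56 h). That is description of a gene chosen for its rhythm, and the share of all probe sets so separated was not counted. The night arrays ran from 10.995 to 11.22 with a median of 11.16, the day arrays from 10.43 to 10.91 with a median of 10.59, and the means differed 1.41-fold. Replicates were closest at 64 h, 0.01 apart, and farthest at 48 h, 0.54 apart. In the order of the 13 time means, from 11.18 at 40 h down to 10.48 at 32 h, every time overlapped the next one in its replicate values, except 36 h and 32 h.

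**Figure D1:**
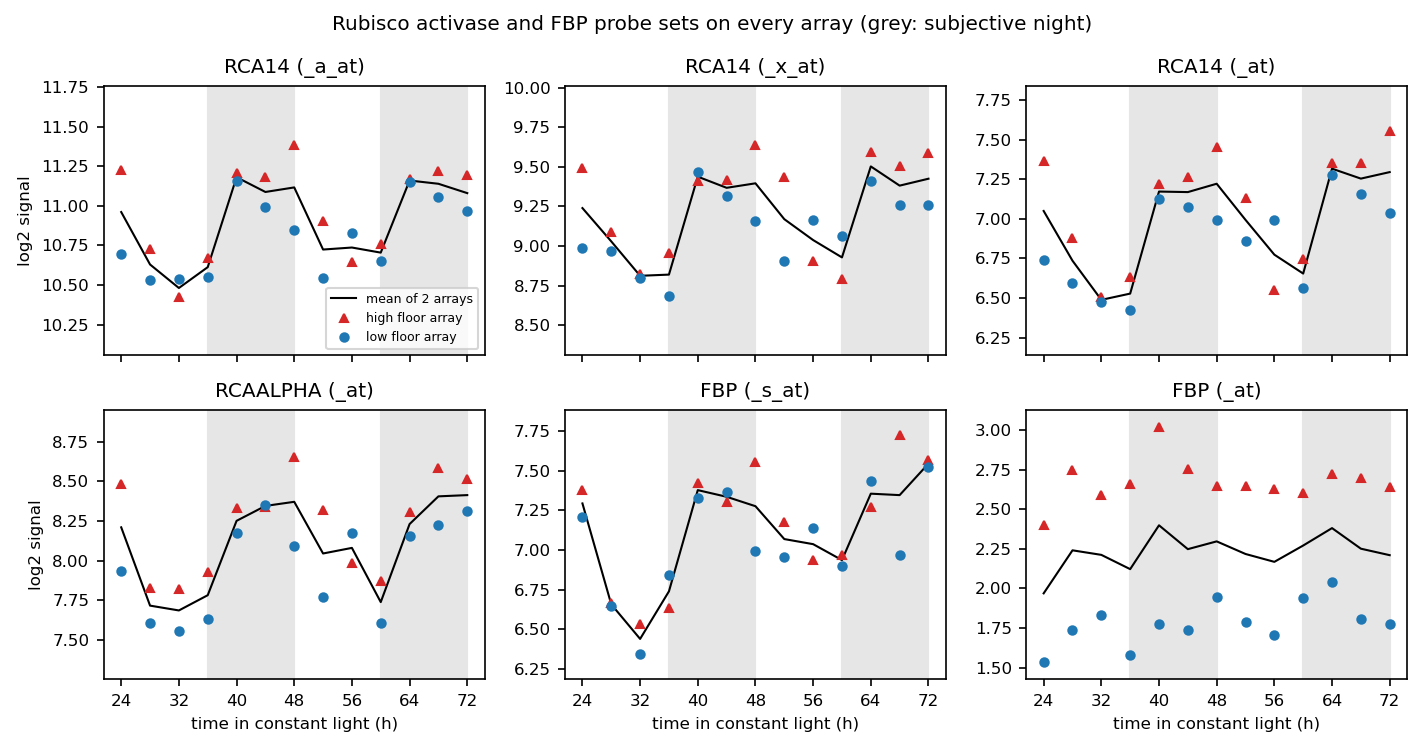
Log2 signal (vertical axes, each panel with its own range of the same height) of the 6 probe sets on each of the 26 arrays against time in constant light in hours. Points are arrays, triangles high-floor and circles low-floor, lines join the means of the 2 arrays, and grey marks the subjective night. The RCA14, RCAALPHA and FBP "_s_at" sets were lowest at 32 h, and the FBP "_at" set followed the array floor.

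The other RCA14 probe sets drew the same course. RCA14 "_x_at" ran from 9.26 to 9.60 (median 9.41) on the 8 night arrays and from 8.80 to 9.43 (median 8.94) on the 8 day arrays, a 1.33-fold difference of means with overlap. RCA14 "_at" ran from 7.07 to 7.36 (median 7.24) at night and from 6.47 to 7.13 (median 6.73) by day, a 1.39-fold difference of means with overlap. Pairs of the 3 RCA14 probe sets had an r of 0.937 to 0.948 over the 26 arrays. These correlations are descriptive, since the probe sets share arrays, time course and in part their target.

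RCAALPHA was high late in the subjective night and at subjective dawn. In the first cycle its replicates read 7.94 and 8.48 at 24 h, 7.60 and 7.83 at 28 h, 7.55 and 7.82 at 32 h, 7.63 and 7.93 at 36 h, 8.17 and 8.33 at 40 h, and 8.35 and 8.34 at 44 h. In the second cycle they read 8.09 and 8.65 at 48 h, 7.77 and 8.32 at 52 h, 8.17 and 7.99 at 56 h, 7.60 and 7.87 at 60 h, 8.31 and 8.15 at 64 h, and 8.23 and 8.58 at 68 h, and 72 h gave 8.52 and 8.31. Its 8 night arrays ran from 8.15 to 8.58 with a median of 8.32, and its 8 day arrays from 7.55 to 8.32 with a median of 7.82. The groups overlapped through 1 array at 52 h and 1 at 56 h, and the means differed 1.34-fold. The order of time means ran from 8.41 at 72 h to 7.69 at 32 h, and all neighbours in it overlapped except 44 h and 40 h.

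FBP spanned the widest range of the tested probe sets of these genes. In the first cycle its "_s_at" replicates read 7.21 and 7.38 at 24 h, 6.65 and 6.67 at 28 h, 6.35 and 6.53 at 32 h, 6.84 and 6.64 at 36 h, 7.33 and 7.43 at 40 h, and 7.37 and 7.30 at 44 h. In the second cycle they read 6.996 and 7.56 at 48 h, 6.96 and 7.18 at 52 h, 7.14 and 6.94 at 56 h, 6.90 and 6.97 at 60 h, 7.27 and 7.44 at 64 h, and 6.97 and 7.72 at 68 h, and 72 h gave 7.57 and 7.52. The 8 night arrays ran from 6.97 to 7.72 with a median of 7.35, the 8 day arrays from 6.35 to 7.18 with a median of 6.80, and the means differed 1.47-fold. The overlap came from the lower array of 68 h, which stood 0.76 below its partner, the largest replicate difference of FBP. Time means ran from 7.54 at 72 h to 6.44 at 32 h, a 2.15-fold range, against 1.61-fold to 1.78-fold for the RCA14 probe sets and 1.66-fold for RCAALPHA. In that order the neighbours 72 h and 40 h, 60 h and 36 h, and 28 h and 32 h did not overlap, and all others did.

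The largest rise fell in the same 4 h of both cycles, between subjective dusk and the next sample. In the first cycle FBP had already risen by 0.30 from 32 to 36 h and RCA14 "_a_at" by 0.13. Both later arrays were then above both earlier ones, and the median of all probe sets tested moved by 0.11. From 56 to 60 h FBP changed by -0.10 and RCA14 "_a_at" by -0.03, with a median of -0.11. From 36 and 60 h to 40 and 64 h, RCA14 "_a_at" went from 10.66 ± 0.08 to 11.17 ± 0.03 log2 units (SD, n = 4 arrays at each end), 1.43-fold. RCAALPHA went from 7.76 ± 0.16 to 8.24 ± 0.09, 1.40-fold, and FBP from 6.84 ± 0.14 to 7.37 ± 0.08, 1.44-fold. All 4 later arrays were above all 4 earlier arrays for each of the 5 tested probe sets. The genes were chosen for a rhythm with this peak, so the separation is description only. The share of all probe sets with such a separation was not counted. Over the same steps the median of all probe sets tested moved by -0.08 from 36 to 40 h and by -0.03 from 60 to 64 h. The descent after subjective dawn is given by cycle, and its difference between cycles was not tested. From 24 to 28 h FBP changed by -0.64 and RCAALPHA by -0.49, with both later arrays below both earlier ones, a size like that of their rises of 0.64 and 0.47 from 36 to 40 h. From 48 to 52 h they changed by -0.21 and -0.33, with overlap, and RCA14 "_a_at" changed by -0.33 and -0.39 in the 2 cycles, with overlap in each. Over both cycles, from 24 and 48 h to 28 and 52 h the mean changed by -0.36 for RCA14 "_a_at", by -0.41 for RCAALPHA and by -0.42 for FBP, with overlapping arrays in all 3.

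**Figure D2:**
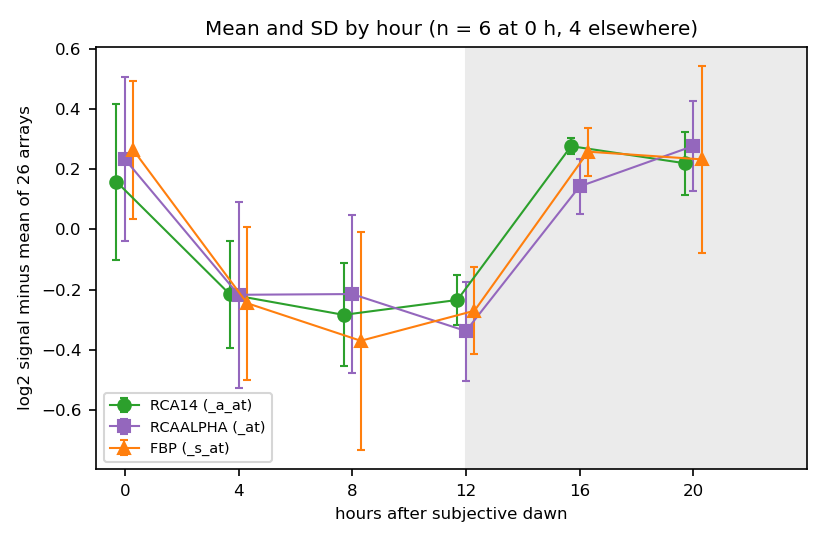
Mean log2 signal minus the mean of the 26 arrays (vertical axis) against hours after subjective dawn, both cycles combined. Bars are SD over 6 arrays at 0 h and 4 arrays at the other hours, and grey marks the subjective night. The 3 genes lie low from 4 to 12 h and high from 16 to 20 h and at 0 h.

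Folded onto a single day, the 3 genes held similar shapes. RCA14 "_a_at" averaged 11.05 ± 0.26 at dawn (SD, n = 6), 10.61 ± 0.17 at 8 h and 11.17 ± 0.03 at 16 h (SD, n = 4 each). RCAALPHA averaged 8.33 ± 0.27 at dawn, 7.76 ± 0.16 at 12 h and 8.38 ± 0.15 at 20 h. FBP averaged 7.37 ± 0.23 at dawn, 6.74 ± 0.36 at 8 h and 7.37 ± 0.08 at 16 h. The spread between arrays was smallest at 16 h for each of these 3 probe sets.

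A cosine wave of 24 h was fitted to summarise the rhythm, with its amplitude, the distance from mean to peak, in log2 units. The amplitude was 0.30 ± 0.05 (SE) for RCA14 "_a_at", 0.27 ± 0.06 for RCA14 "_x_at" and 0.33 ± 0.06 for RCA14 "_at", with peaks 19.8, 20.6 and 21.0 h after subjective dawn. It was 0.30 ± 0.06 for RCAALPHA, peaking at 21.1 h, and 0.34 ± 0.06 for FBP, peaking at 20.5 h. These waves have trough-to-peak ratios of 1.46-fold to 1.60-fold. All 5 were among the 138 probe sets (1.2% of those tested) with an adjusted p under 0.05, as their selection required, and nothing is read from that count. The median amplitude over all probe sets tested was 0.08.

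The amplitude estimates of these genes were higher in the high-floor than in the low-floor arrays. Within the low-floor arrays alone they were 0.25 ± 0.06 (SE) for RCA14 "_a_at", 0.27 ± 0.08 for RCAALPHA and 0.27 ± 0.10 for FBP. Within the high-floor arrays alone they were 0.38 ± 0.06, 0.35 ± 0.06 and 0.42 ± 0.07. For RCA14 "_at" they were 0.23 ± 0.08 and 0.45 ± 0.06. High-floor arrays also read higher, by 0.17 ± 0.21 for RCA14 "_a_at", 0.26 ± 0.22 for RCAALPHA and 0.11 ± 0.28 for FBP (SD over 13 times), in 11, 11 and 9 of the 13 times. The median of the whole array was likewise higher on the high-floor array at most times, but not at 24, 28, 40 and 56 h. The share of all probe sets that read higher on high-floor arrays was not counted. The difference in amplitude between the classes was not tested. The classes also differed over all 11481 probe sets tested. The 24 h rhythm had an unadjusted p under 0.05 (limma) for 554 of them in low-floor and 1509 in high-floor arrays.

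No difference between the cycles of RCA14, RCAALPHA or FBP passed the test across all probe sets. The amplitudes in each cycle are descriptive, since the arrays of both cycles chose the genes. Amplitudes in the first cycle (24 to 44 h) were 0.36, 0.32 and 0.39 for RCA14 "_a_at", "_x_at" and "_at", 0.38 for RCAALPHA and 0.51 for FBP. In the second cycle (48 to 68 h) they were 0.28, 0.25 and 0.32 for RCA14, 0.28 for RCAALPHA and 0.21 for FBP. SEs were 0.07 to 0.09 throughout. Peaks of the second cycle came at 19.9 to 21.9 h, against 19.4 to 20.2 h in the first. The vector difference between cycles, which combines height and timing, was 0.31 ± 0.11 (SE) for FBP, with an unadjusted p of 0.0400 and an adjusted p of 0.456 (limma, Benjamini-Hochberg). It was 0.21 ± 0.12 for RCAALPHA with an adjusted p of 0.707, and 0.08 to 0.09 for the RCA14 probe sets with adjusted p of 0.886 to 0.929. None of the 11481 probe sets passed (0%), while 1186 (10.3%) had an unadjusted p under 0.05, so that FBP alone at that level among 5 is read against that share.

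**Figure D3:**
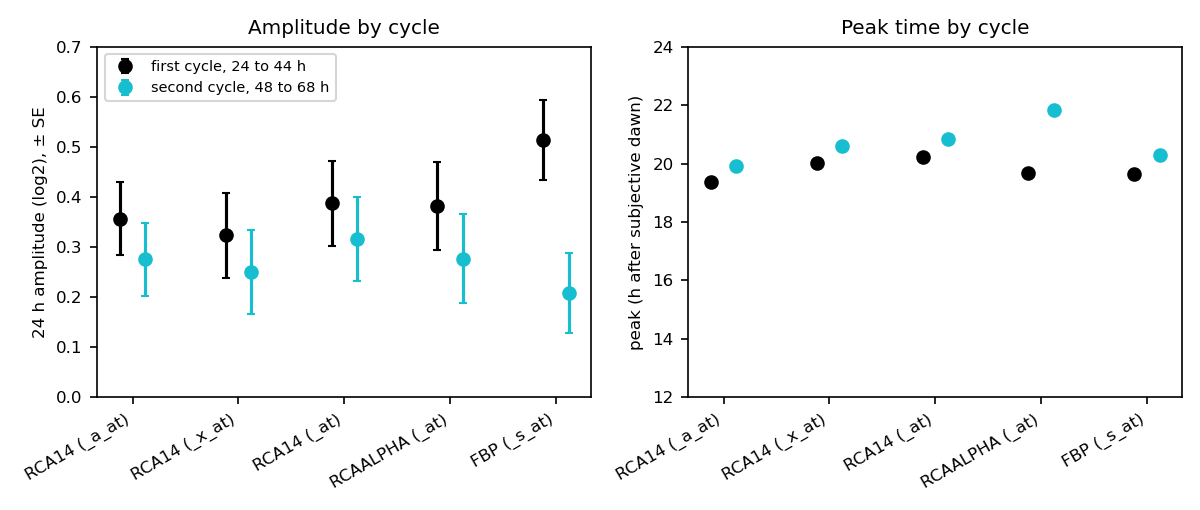
Left, amplitude of the 24 h wave in log2 units with its SE for the 5 tested probe sets in the first (24 to 44 h) and second (48 to 68 h) cycle. Right, time of the peak in hours after subjective dawn. FBP went from 0.51 to 0.21 with an adjusted p of 0.456 for the difference between cycles, and peaks lay between 19.4 and 21.9 h.

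Levels over the 48 h of sampling tended upward in the estimates but passed no test. The linear trend beside the wave was 0.07 ± 0.06 log2 units per 24 h (SE) for RCA14 "_a_at", 0.09 ± 0.07 for RCA14 "_x_at" and 0.14 ± 0.07 for RCA14 "_at". It was 0.13 ± 0.07 for RCAALPHA and 0.18 ± 0.07 for FBP. The slope of RCA14 "_a_at" was 0.04 without replicate 1 of 24 h and 0.11 without replicate 2, and that of "_x_at" 0.05 without the former. Without the 24 h wave in the fit the slopes were 0.16 to 0.22 for RCA14, 0.20 for RCAALPHA and 0.27 for FBP. Adjusted p in the fit with the wave were 0.838 for FBP and 0.927 to 0.986 for the activases (limma). Unadjusted p in this fit were 0.0187 for FBP and 0.0490 for RCA14 "_at", 2 of the 5 probe sets. No probe set of the 11481 passed (0%), while 612 (5.33%) had an unadjusted p under 0.05, 358 of them (3.12% of those tested) with a positive slope. The mean of the second day minus that of the first was 0.20 ± 0.08 for FBP, 0.15 ± 0.09 for RCAALPHA and 0.10 to 0.18 for RCA14, with adjusted p of 0.781, 0.841 and 0.810 to 0.854. Of all probe sets, 1 passed (0.00871%), and 701 (6.11%) had an unadjusted p under 0.05.

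No 12 h component of the time course passed a test. A 12 h wave added to the fit had an amplitude of 0.05 to 0.11 log2 units for RCA14, 0.04 for RCAALPHA and 0.07 for FBP. No probe set passed that test (0%), and 196 (1.71%) had an unadjusted p under 0.05, none of them from these genes, whose smallest was 0.169. When the period was varied from 18 to 30 h, the best fits were 24 h for RCA14 "_a_at" and "_at", 23.75 h for "_x_at", 24.75 h for FBP and 25.75 h for RCAALPHA. Of the variance left after a linear trend, the 24 h wave accounted for 61.5% for RCA14 "_a_at", 51.7% for RCAALPHA and 55.6% for FBP. At their best periods it was little more, 54.9% for RCAALPHA and 56.5% for FBP. Differences in period between the genes were not tested.

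The 3 genes moved closely together. Over the 26 arrays RCA14 "_a_at" correlated with RCAALPHA at r of 0.909 and with FBP at 0.859, and RCAALPHA with FBP at 0.867. On the log2 scale RCAALPHA minus RCA14 "_a_at" was -2.79 ± 0.13 units (SD over 26 arrays), a gap that depends on the probes and varied little. The gap from RCA14 "_a_at" carried a 24 h wave of 0.10 ± 0.03 (SE), but those from "_at" and "_x_at" carried waves of 0.03 ± 0.04 and 0.05 ± 0.04, so that a difference in course between the activases rests on 1 of the 3 RCA14 probe sets. For FBP minus RCA14 "_a_at" the wave was 0.07 ± 0.05, and for FBP minus RCAALPHA 0.06 ± 0.05. These values are descriptive, as the shared rhythm chose the genes.

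With time of day removed, RCA14 "_a_at" and RCAALPHA still varied together between the arrays of a time by r, but not by adjusted rho. Their probe sets belong to the same cluster, and cross-binding between them was not tested. For each of the 13 times the value of the low-floor array was subtracted from that of its high-floor partner, and the differences were set against each other over 6 relations examined after the data had been seen, with 100000 permutations each. The differences of RCA14 "_a_at" and RCAALPHA correlated at r of 0.793 (p = 0.00138, adjusted p = 0.00828) and rho of 0.659 (p = 0.0176, adjusted p = 0.0529). Without 24 h and 48 h, where both genes differed by 0.53 to 0.56 between replicates, r was 0.650 (permutation p = 0.0318). The differences of RCAALPHA and FBP correlated at r of 0.621 (permutation p = 0.0243, adjusted p = 0.0487) and rho of 0.692 (adjusted p = 0.0529), and the relation did not hold without 48 h and 56 h, with r of 0.434 (p = 0.188). Those of RCA14 and FBP gave r of 0.474 and rho of 0.440 with adjusted p of 0.148 and 0.135. Differences of RCA14 correlated with those of all probe sets tested at a median r of 0.185, and 0.314% of probe sets reached the r of RCAALPHA, while 21.2% reached that of FBP. With each array centred on its median, r was 0.648 for RCA14 with RCAALPHA, 0.216 for RCA14 with FBP and 0.421 for RCAALPHA with FBP.

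**Figure D4:**
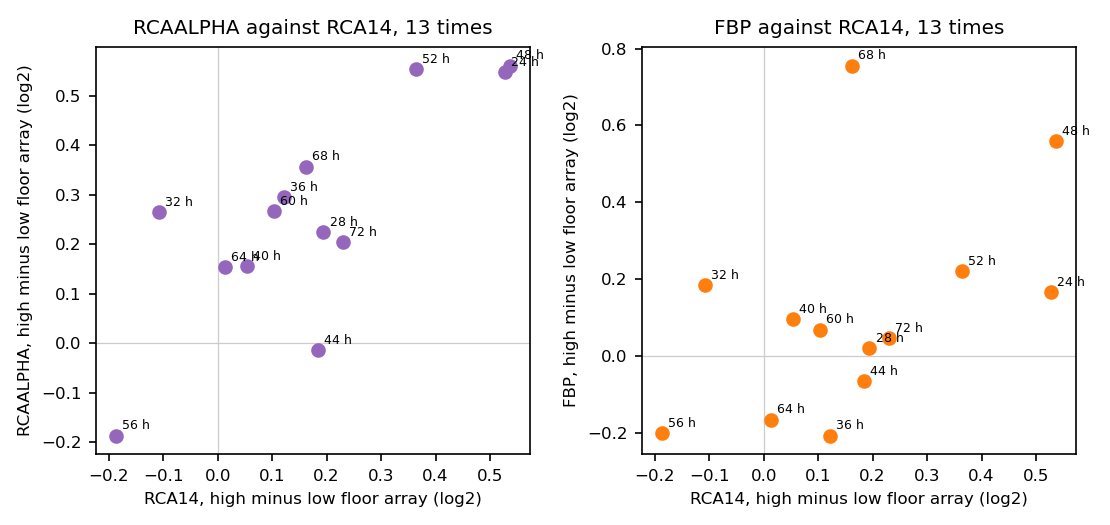
Difference between the high-floor and the low-floor array of each of the 13 times, in log2 units, for RCAALPHA (left) and FBP (right) against RCA14 "_a_at". Each point is a time in constant light. RCA14 differed most at 24 and 48 h, RCAALPHA at 24, 48 and 52 h, and FBP at 68 h.

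Transcripts of seed maturation were compared with the 3 genes in the same way. The mean of 33 probe sets for late embryogenesis and seed maturation proteins, all above the filter, was 11.72 ± 0.33 on the 8 night arrays and 11.90 ± 0.39 on the 8 day arrays (SD). Seed coat markers averaged 13.24 ± 0.24 and 13.18 ± 0.29, and seed storage markers differed by -0.03 between night and day. Within times, the differences of the maturation mean and of FBP correlated negatively, with r of -0.678 (permutation p = 0.0101, adjusted p = 0.0304) and rho of -0.473 (adjusted p = 0.135). At some times, such as 24 h and 40 h, both differences nevertheless had the same sign. The relation did not hold without 48 h and 68 h, with r of -0.379 (permutation p = 0.248). For RCA14 and RCAALPHA r was -0.374 and -0.421, with adjusted p of 0.209 and 0.182, and for RCA14 without 24 h and 48 h r was -0.726 (permutation p = 0.0109). With arrays centred on their medians r was -0.481 for FBP, -0.107 for RCA14 and -0.199 for RCAALPHA. The part of seed maturation in the values of these genes was not tested.

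Among named genes, those whose time course was most like the activases included a chloroplast ATP synthase subunit and lipoxygenases. Likeness was the r over the 26 arrays between the brightest probe set of RCA14, RCAALPHA or FBP and whichever probe set of the other gene gave the highest r, and the 5 closest named genes are given. LOX9 is therefore represented by different probe sets beside RCA14 and beside RCAALPHA, and CAB3 by the dimmer of its 2 bright ones. RCA14 was closest to ATPC, which encodes the gamma subunit of the ATP synthase in chloroplasts (r of 0.876), followed by the lipoxygenases LOX7 (0.849) and LOX9 (0.828), P42-1 (0.826) and PAP3, a purple acid phosphatase (0.822). RCAALPHA was closest to LOX9 (0.905), then PAP3 (0.852), LOX7 (0.835), ATPC (0.831) and Gm sel-1 (0.829). FBP was closest to LHCP (0.886) and CAB3 (0.880), both light-harvesting chlorophyll a/b-binding proteins, then SCB1, a seed coat BURP-domain protein (0.878), ATPC (0.871) and GSTU3, a glutathione transferase (0.861). Fitted peaks of all these probe sets lay between 19.3 and 21.2 h. ATPC alone appears in all 3 lists.

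The rest of the pathways were counted from lists of symbols. Of other Calvin cycle genes, only 3 probe sets passed the signal filter, all glyceraldehyde-3-phosphate dehydrogenases of the same probe cluster, and 0 of 3 had a 24 h rhythm with an adjusted p under 0.05 and 0 of 3 an unadjusted p under 0.05 (limma). With 3 probe sets, these counts are too small to set against the 1.2% and 10.3% of all tested. GAPC is the name of the cytosolic form, which acts in glycolysis, and the form behind the symbol GAPDH is not given. Their amplitudes were 0.05 ± 0.05 and 0.07 ± 0.03 (SE) for the 2 GAPC1 probe sets and 0.08 ± 0.03 for GAPDH, with adjusted p of 0.520 to 0.882. A further activase, RCA11, and the aldolase FBA had mean log2 signals of 3.04 and 2.35, below the filter.

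Some genes of the light reactions were rhythmic with a peak in the subjective night, as the 3 genes were. Of 12 probe sets tested in the list of light reactions and chlorophyll synthesis, 4 had a rhythm, all of this phase (against 1.2% of all tested). In the same list 10 had an unadjusted p under 0.05 (against 10.3%), and 10 peaked between 18 and 22 h (against 18.6% of all tested), with a median amplitude of 0.23. That window holds the peaks of RCA14, RCAALPHA and FBP. Fitted peaks of 3 of 3 GAPC1 and GAPDH probe sets and 8 of 15 seed storage probe sets lay in it too, but none of these waves had an adjusted p under 0.05. The 4 were ATPC with 0.42 ± 0.07 (SE) and an adjusted p of 0.00444 (limma), LHCP with 0.53 ± 0.12 and 0.0409, ELIP, an early light-induced protein, with 0.50 ± 0.11 and 0.0430, and PSAD, a subunit of photosystem I, with 0.15 ± 0.03 and 0.0377. A further tested probe set of LHCP had 0.56 ± 0.13 and 0.0531, and a further one of PSAD 0.15 ± 0.06 and 0.483, so neither passed. ATPC kept its call when any of the 26 arrays was left out and lost it within the low-floor arrays alone, whereas PSAD lost it for 12 arrays, ELIP for 18 and LHCP for 19, and the count in the list then ran from 1 to 7. The 2 brightest CAB3 probe sets, at mean log2 signals of 14.89 and 12.22, had amplitudes of 0.20 ± 0.07 and 0.26 ± 0.07 with adjusted p of 0.370 and 0.188. GSA1, CHLH, HEMB and HEMG, the chlorophyll synthesis genes of the list, did not pass, with adjusted p of 0.0543, 0.0591, 0.937 and 0.972 (limma).

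Sucrose, starch and sugar transport genes passed no rhythm test. None of 10 probe sets did at either level of p, which is near the 1.2% and 10.3% of all tested. The brightest were BMY1, a beta-amylase, at an amplitude of 0.07 ± 0.03 (SE), the sugar transporter SWEET24 at 0.01 ± 0.04 and the sucrose synthase SS at 0.06 ± 0.06. The largest amplitude in the list was that of GOLS, 0.33 ± 0.17 with an adjusted p of 0.702 (limma). Of 9 probe sets for phosphoenolpyruvate carboxylases and their kinases, which act in the refixation of carbon in seeds, none passed and 1 had an unadjusted p under 0.05, also near those shares. PPCK2, a carboxylase kinase, had an amplitude of 0.12 ± 0.04 with an adjusted p of 0.419. FTRC, a subunit of ferredoxin-thioredoxin reductase, which passes electrons to thioredoxin, had an amplitude of 0.02 ± 0.05. Of oscillator genes, only 2 LHY probe sets passed the signal filter. Of these, 0 of 2 had an unadjusted p under 0.05, too few to set against 10.3%. The trend, cycle, day and 12 h tests called none in any of these lists. They called only 0, 0, 1 and 0 of all 11481 probe sets tested, so nothing is read from that.

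**Figure D5:**
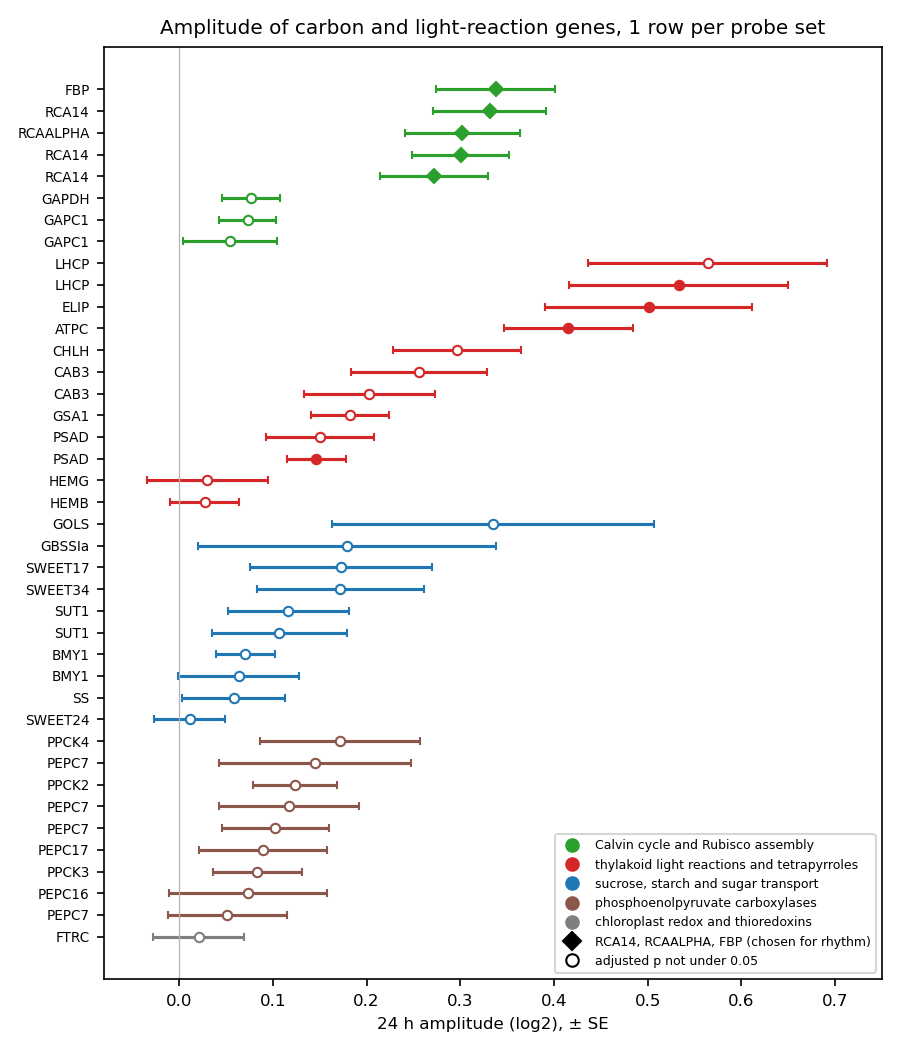
Amplitude of the 24 h wave in log2 units with its SE, 1 row per tested probe set, coloured by list. Diamonds are RCA14, RCAALPHA and FBP, chosen for their rhythm and not tested. Filled circles have an adjusted p under 0.05, which were 1 probe set each of ATPC, ELIP, LHCP and PSAD.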

How the data were processed

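Values are log2 signals per probe set, deposited by the authors after background correction and normalization with GCRMA, per the submitters' processing notes. Its version was not given in the sources used here. The log2 scale was read from the values. GCRMA compresses low signals. RNA (2.5 µg) was labelled as biotin cRNA, per the labels. The table may lack probe sets of the array, which were not analysed here. The number of arrays limits the precision. Whether replicates of a time shared plants is not stated in the labels, and the p-values then cover only the spread between these samples, which may be technical.

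The 11481 probe sets whose log2 signal averaged above 4 were tested with limma 3.58.1 in R 4.3.3 (lmFit, eBayes, Benjamini-Hochberg over all of them, threshold 0.05). The rhythm fit held a cosine and sine of 24 h and linear time; the cycle test used the 24 arrays from 24 to 68 h. Fits were tested on simulated data. Python 3.11.15 was used for the rest.

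The members and lists were chosen with earlier results of these data known. Named genes were all probe sets of RCA14, RCAALPHA and FBP, the up to 5 named genes most correlated with each, and the 3 brightest of each list. ELIP, GSA1, CHLH, HEMB, HEMG, RCA11, FBA, GOLS, FTRC, LHY, CG-1 and BBI-1 were named after their values were seen. List names that only began like a listed symbol were left out after mean signals had been seen, which changed no count of calls. Symbols come from the platform annotation (1 symbol for 5002 probe sets, several for 217, none for 11164; 4989 found in RefSeq, Glycine_max_v4.0). Alternatives were filters, normalizations, moderation, blocks, array classes, periods, covariates and leaving out each array. Sequences were not used here.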

Additional observations from a re-analysis of the deposited data

How the results depend on the processing

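No trend, cycle, day or 12 h result of RCA14, RCAALPHA or FBP changed its side of the threshold under the alternatives run for them: filters, normalizations, moderation, blocks, floor classes, each array left out and, for the trend, no cosine and sine. Other periods and no linear time were run for the 24 h rhythm. Their amplitudes without any 1 array were 0.28 to 0.33, 0.25 to 0.30 and 0.30 to 0.37 for RCA14 "_a_at", "_x_at" and "_at", 0.27 to 0.34 for RCAALPHA and 0.31 to 0.38 for FBP. Slopes without any 1 array were 0.04 to 0.11, 0.05 to 0.12 and 0.10 to 0.19 for RCA14, 0.10 to 0.17 for RCAALPHA and 0.16 to 0.23 for FBP. The adjusted p of FBP between cycles ran from 0.184 to 0.722 without 1 array. Counts over all probe sets moved more, and the causes were not tested. For the 24 h rhythm the count of 138 became 76 with no filter, 232 with quantile normalization, 208 with array medians centred, 0 within low-floor and 42 within high-floor arrays (13 arrays each), 64 with a period of 22 h and 258 with no linear time, and 72 to 199 without 1 array (72 without 44 h replicate 1, 77 without 24 h replicate 2, 78 and 91 without 32 h replicates 1 and 2). The linear trend gave 1 with the replicate block and 3 with no cosine and sine, and 0 to 1 without 1 array (1 without 52 h replicate 2). The first against second cycle gave 1 with quantile normalization, with medians centred, with trended robust moderation, with the replicate block and within low-floor arrays, 2 with the floor class as a block and 5 within high-floor arrays, and 0 to 74 without 1 array (74 without 64 h replicate 2, 34 without 68 h replicate 2). The second day against first day gave 0 with no filter, 2 with a mean above 6, quantile normalization, medians centred or robust moderation, 4 with the floor class as a block, and 0 to 2 without 1 array; within a floor class the fit with a mean per time leaves no residual degrees of freedom, and one with hour of day and day as terms, added after seeing the data, gave 0 in the low-floor and 0 in the high-floor arrays, with differences for FBP of 0.11 and 0.28. The 12 h harmonic gave 0 throughout. Of the light-reaction list, 4 became 1 with no filter, 7 with a mean above 6, 7 with quantile normalization, 7 with no linear time, 2 with a period of 22 h, 0 within low-floor and 1 within high-floor arrays, and 1 to 7 without 1 array. Differences between replicates 1 and 2 correlated between times at -0.38 to 0.61, median 0.02, with 34 of 78 pairs of times over 0.1, and replicate numbers were not taken to pair the samples. Replicate 1 was the low-floor array at every time except 64 and 72 h. The blocks for replicate and for floor class are therefore nearly the same and are not separate checks. The replicate block gave 144 rhythmic probe sets and changed no call of the 3 genes.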
